A study of Mus musculus with 2 samples.

Results

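Collagens are the main structural proteins of the extracellular matrix, and 44 of the 27998 genes in both count matrices carried a collagen chain symbol, that is, Col, a type number, the letter a and a chain number. These 44 genes were the members described here. They comprised 11 fibrillar collagens, 9 collagens of basement membranes and 24 other collagens, which are beaded filament, fibril-associated, network-forming and transmembrane chains. Of the 44, 31 had at least 100 unique molecular identifiers (UMIs, counts of captured transcript molecules) over the somatic cells of both libraries: 7 fibrillar, 8 basement membrane and 16 other collagens. Levels are given for these 31 as CPM, the UMIs of a gene for each 1000000 UMIs, summed over all cells of a class in 1 library.

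Fetal mouse ovaries at E15.5 were profiled by 10X single-cell RNA sequencing in 1 library of wild-type embryos (WT) and 1 library of embryos homozygous for a deletion of Nr3c1, the gene of the glucocorticoid receptor (KO). The KO allele came from a floxed exon 3 (Nr3c1tm1.1Jda) recombined by a Cre under the β-actin promoter (Tmem163Tg(ACTB-cre)2Mrt), so that receptor loss was not restricted to 1 cell type; the embryos were bred between heterozygotes, and both groups carried the Tg(Pou5f1-EGFP)2Mnn reporter of germ cells. The WT library pooled 4 embryos and the KO library pooled 2, and in each the sorted GFP-positive germ cells were put back with GFP-negative somatic cells at 60% to 40%. With 1 library a group there was no replicate, so no test between genotypes was possible; intervals below are exact 95% intervals and cover counting error only, and genotype cannot be told apart from the pool of embryos, the capture and the depth.

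After the study's limits on cells, the WT library held 9045 cells with a median of 15685 UMIs and the KO library 15502 cells with a median of 10194.5 UMIs, and 27 kept barcodes occurred in both. Cells were grouped by clustering without the collagen genes and named from marker lists that held no collagen. This gave, in WT and KO respectively, 870 and 1831 granulosa-like cells, 761 and 1519 theca-like cells, 351 and 954 epithelia-like cells, 30 and 136 endothelia-like cells, and 14 and 54 perivascular-like cells. There were also 31 and 50 immune-like cells, 13 and 55 erythroid-like cells, and 6975 and 10903 germ-like cells. All 8 markers of each class stood above 2-fold over the other classes in both libraries, except that 6 of 8 did in theca-like cells, where Nr2f1 and Ptch1 did not. The theca-like class, named after the study's term, had Pdgfra and Tcf21 among its markers. Nr3c1 transcripts fell by 1.91 on the log2 scale in KO theca-like cells, by 1.89 in granulosa-like cells and by 2.01 in epithelia-like cells.

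Collagen chains wind in threes into a triple helix. Fibrillar collagens, types I, II, III, V, XI, XXIV and XXVII, assemble into the fibres of connective tissue, whereas type IV collagen forms the sheet-like network of basement membranes, to which types XV and XVIII are bound as proteoglycans and which type VII anchors to the stroma. Type VI forms beaded filaments next to many cells, types IX, XII, XIV and XVI decorate fibrils, and types XIII, XXIII and XXV span the plasma membrane. In the fetal ovary, basement membrane surrounds the ovigerous cords that hold germ cells and pregranulosa cells, and fibrillar matrix lies in the stroma between them.

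Several members are neighbours in the genome (GRCm38, GENCODE M21). Col4a1 and Col4a2 lie head to head on chromosome 8, on opposite strands, with annotated starts that overlap by a few bases. Col4a6 and Col4a5 lie head to head on the X chromosome with 1308 bases between them, and Col4a3 and Col4a4 head to head on chromosome 1 with 71 bases between them. Col3a1 and Col5a2 lie tail to tail on chromosome 1, 24614 bases apart, and Col6a6, Col6a5 and Col6a4 follow each other on chromosome 9. Partners in a head-to-head pair did not always share a level: Col4a4 had 367 UMIs in somatic cells, most of them in theca-like cells, whereas Col4a3 had 30.

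Bases upstream of the annotated start are shown for 6 members whose data the results turn on and whose window holds no annotated exon: 5 collagens that were higher in theca-like cells (Col3a1, Col5a1, Col6a3, Col11a1 and Col13a1) and 1 that was higher in endothelia-like cells (Col15a1). Each runs for 250 bases, 5′ to 3′ on the strand of the gene, ending at the base before the start, from RefSeq on GRCm38.p6. The windows are chr1:45311288-45311537 (plus) for Col3a1, chr2:27886175-27886424 (plus) for Col5a1, chr1:90843972-90844221 (minus) for Col6a3, chr3:114030290-114030539 (plus) for Col11a1, chr10:61979109-61979358 (minus) for Col13a1 and chr4:47207762-47208011 (plus) for Col15a1. Capitals mark motifs found on either strand. One of them is the CCAAT box with the letters of its name. The GC box was searched as GGGCGG, read on both strands. The TATA box was searched likewise with the letters TATAAA.
Col3a1: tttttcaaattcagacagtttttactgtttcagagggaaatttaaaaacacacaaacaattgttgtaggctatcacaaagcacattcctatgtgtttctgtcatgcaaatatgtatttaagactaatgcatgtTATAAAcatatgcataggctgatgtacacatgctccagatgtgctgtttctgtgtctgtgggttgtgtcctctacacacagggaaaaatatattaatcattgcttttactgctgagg
Col5a1: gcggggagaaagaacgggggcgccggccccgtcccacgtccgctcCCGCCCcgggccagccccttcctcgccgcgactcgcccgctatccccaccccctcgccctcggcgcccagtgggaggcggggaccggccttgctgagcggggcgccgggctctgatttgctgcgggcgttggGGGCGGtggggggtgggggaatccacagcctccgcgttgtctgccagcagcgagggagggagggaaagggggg
Col6a3: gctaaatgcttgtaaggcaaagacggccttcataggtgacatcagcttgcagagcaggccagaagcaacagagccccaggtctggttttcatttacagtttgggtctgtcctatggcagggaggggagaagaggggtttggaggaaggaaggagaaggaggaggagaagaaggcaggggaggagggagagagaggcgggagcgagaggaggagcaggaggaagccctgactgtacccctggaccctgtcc
Col11a1: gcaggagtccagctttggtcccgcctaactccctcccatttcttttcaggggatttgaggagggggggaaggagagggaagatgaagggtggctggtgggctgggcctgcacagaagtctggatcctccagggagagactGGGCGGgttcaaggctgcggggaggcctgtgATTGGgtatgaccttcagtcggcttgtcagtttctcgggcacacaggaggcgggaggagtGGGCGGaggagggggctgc
Col13a1: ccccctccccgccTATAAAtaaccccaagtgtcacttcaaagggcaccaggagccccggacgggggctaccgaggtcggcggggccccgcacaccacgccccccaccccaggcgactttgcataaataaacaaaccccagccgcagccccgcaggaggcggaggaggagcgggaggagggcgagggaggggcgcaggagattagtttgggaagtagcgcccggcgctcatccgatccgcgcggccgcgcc
Col15a1: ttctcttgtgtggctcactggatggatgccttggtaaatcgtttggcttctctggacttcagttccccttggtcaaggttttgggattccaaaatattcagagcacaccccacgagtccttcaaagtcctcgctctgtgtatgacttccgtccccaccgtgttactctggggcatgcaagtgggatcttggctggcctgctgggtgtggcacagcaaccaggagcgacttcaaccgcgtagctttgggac

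Of the 44 members, 35 had an upstream window in RefSeq, 38 windows in all. A GC box was found in 22 of the 38 windows and in 32.7% of the 32851 windows of all genes. CCAAT was found in 13 of 38 windows against 33.8% of all, and TATAAA in 5 of 38 against 12.4% of all. The TATAAA of Col3a1 ended 112 bases before the start, and the windows of Col6a3 and Col15a1 held none of these motifs. The palindromic glucocorticoid receptor motif was in 0 of 38 collagen windows and in 3 of all windows, which says only that those letters are not in these windows. The median GC content was 59.0% over the collagen windows and 52.4% over all windows.

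Most collagens were highest in theca-like cells. Of the 31 collagens, 22 had at least 2-fold more CPM in theca-like cells than in all other somatic cells in both libraries, compared with 7.26% of the 12650 genes tested by the same rule. They included all 7 fibrillar collagens, 2 of the 8 basement membrane collagens (Col4a4 and Col7a1) and 13 of the 16 other collagens. Only Col18a1 and Col9a3 were at least 2-fold lower there in both libraries (12% of all genes). As a sum, collagens took 4180 CPM of theca-like cells in WT and 4172 CPM in KO, of which 70.0% were fibrillar in each.

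**Figure D1:**
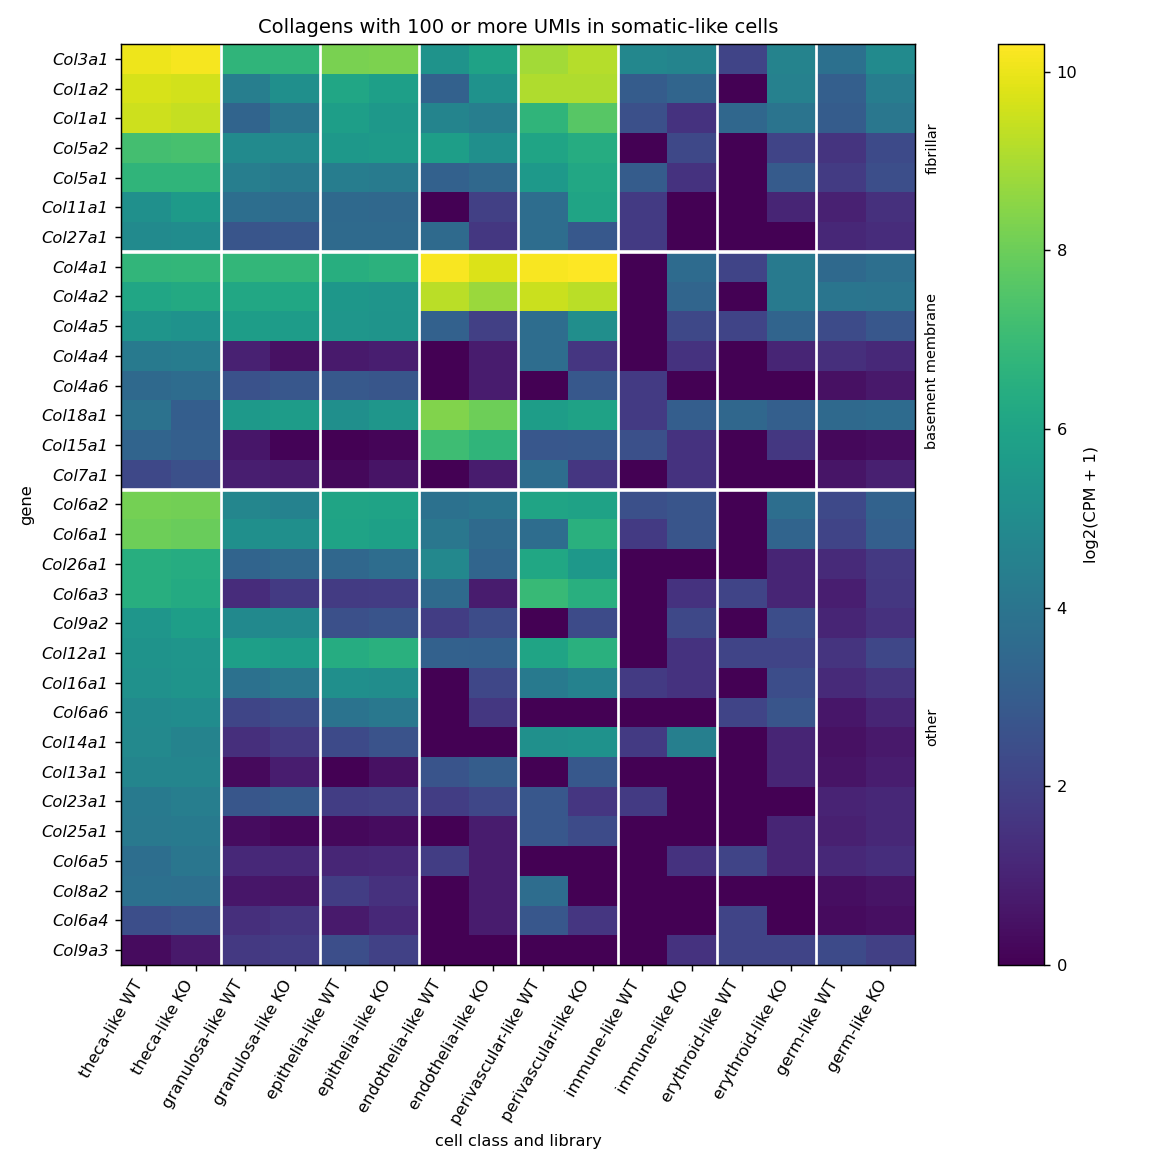
Level of the 31 collagens with at least 100 somatic UMIs in each cell class and library, as colour on the log2(CPM + 1) scale (rows are genes in their 3 groups, columns are classes with WT and KO side by side). Most rows are brightest in the theca-like columns, whereas Col4a1, Col4a2, Col6a3, Col14a1, Col15a1 and Col18a1 are brightest in endothelia-like or perivascular-like columns. Col11a1 is brightest in the KO perivascular-like column, from 31 UMIs. Col6a4 and Col7a1 are brightest in the WT perivascular-like column, from 1 and 2 UMIs. Columns of WT endothelia-like and perivascular-like cells and of immune-like and erythroid-like cells rest on few cells.

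Types I and III make up the coarse fibres of most connective tissue. Col1a1, the first chain of type I, was at 731 CPM (712 to 749) in WT and 668 CPM (652 to 684) in KO theca-like cells. All other somatic cells had 24.7 CPM in WT and 28.8 CPM in KO, a 29.5-fold and a 23.2-fold difference. Among the other classes the order was perivascular-like (106 and 196 CPM), epithelia-like (53.3 and 44.0 CPM), endothelia-like (24.3 and 20.1 CPM) and granulosa-like cells (8.88 and 15.46 CPM), and the last of these steps was within counting error in KO. Its partner chain Col1a2 was at 821 CPM (801 to 841) and 768 CPM (750 to 785) in theca-like cells, and at 534 CPM (430 to 655) and 544 CPM (480 to 614) in perivascular-like cells.

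Col3a1, whose homotrimers accompany type I in soft tissue, was less restricted to theca-like cells. Its level was 1054 CPM (1032 to 1076) in WT and 1142 CPM (1121 to 1164) in KO theca-like cells, 6.27-fold and 6.32-fold over the other somatic cells. Epithelia-like cells had 299 CPM (285 to 313) and 305 CPM (295 to 315), and granulosa-like cells 106 CPM in each library. Thus the ratio of Col3a1 to Col1a1 UMIs was 1.44 and 1.71 in theca-like cells, 5.61 and 6.93 in epithelia-like cells, and 11.9 and 6.87 in granulosa-like cells, and the intervals of theca-like and epithelia-like cells did not overlap in either library. Ratios of chains are compared between classes only, since 3′ capture may differ from gene to gene.

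The minor fibrillar chains were also higher in theca-like cells. Col5a1 and Col5a2, chains of type V, which sets fibril diameter, were at 106 and 105 CPM and at 149 and 157 CPM in theca-like cells. Col11a1, a related type XI chain, was at 35.1 and 47.6 CPM and Col27a1 at 29.8 and 31.0 CPM. Perivascular-like cells had more Col11a1 in KO, 64.6 CPM from 31 UMIs, but 11.7 CPM from 2 UMIs in WT. The log2 ratio of theca-like over other somatic cells ranged from 1.69 to 2.54 for these 4 genes. The remaining 4 fibrillar genes did not reach 100 somatic UMIs: Col11a2 had 25, Col2a1 24, Col24a1 21 and Col5a3 8.

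Among the other collagens, type VI chains form beaded filaments, and all 6 of them were higher in theca-like cells. Col6a1 was at 258 and 250 CPM, Col6a2 at 281 and 276 CPM and Col6a3 at 87.4 and 78.1 CPM in theca-like cells. Perivascular-like cells had more Col6a3, 123 and 89.6 CPM, from 21 UMIs in WT and 43 in KO. Relative to Col6a2, Col6a3 was lower in epithelia-like and granulosa-like than in theca-like cells. For each Col6a2 UMI there were 0.310 Col6a3 UMIs in WT and 0.283 in KO theca-like cells, but 0.038 and 0.041 in epithelia-like cells and 0.057 and 0.101 in granulosa-like cells. In perivascular-like cells the ratio was 1.91 (0.880 to 4.38) and 1.48 (0.905 to 2.46).

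The membrane-spanning chains Col13a1 and Col25a1 had steep ratios. Col13a1 was at 24.9 CPM in both libraries of theca-like cells (21.6 to 28.6 in WT, 21.9 to 28.2 in KO) and at 0.219 and 1.01 CPM in the other somatic cells. Col25a1 was at 16.9 and 17.4 CPM against 0.274 and 0.304 CPM, a log2 ratio of 5.94 (4.69 to 7.59) and 5.84 (4.88 to 6.99). Both ratios rest on few UMIs outside the theca-like class. Col26a1 (88.4 and 83.2 CPM), Col14a1 (28.1 and 23.3 CPM), Col23a1 (18.0 and 20.4 CPM), Col6a5 (12.3 and 15.7 CPM) and Col6a6 (29.5 and 30.9 CPM) were further members of the 22. The share of theca-like cells with a Col1a1 UMI was 96.2% in WT and 93.8% in KO, and 80.9% and 80.1% after each cell was thinned to 3000 UMIs. In germ-like cells, which are not known as a source of type I collagen, it was 4.70% and 5.66%, and 1.33% and 2.81% after thinning.

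**Figure D2:**
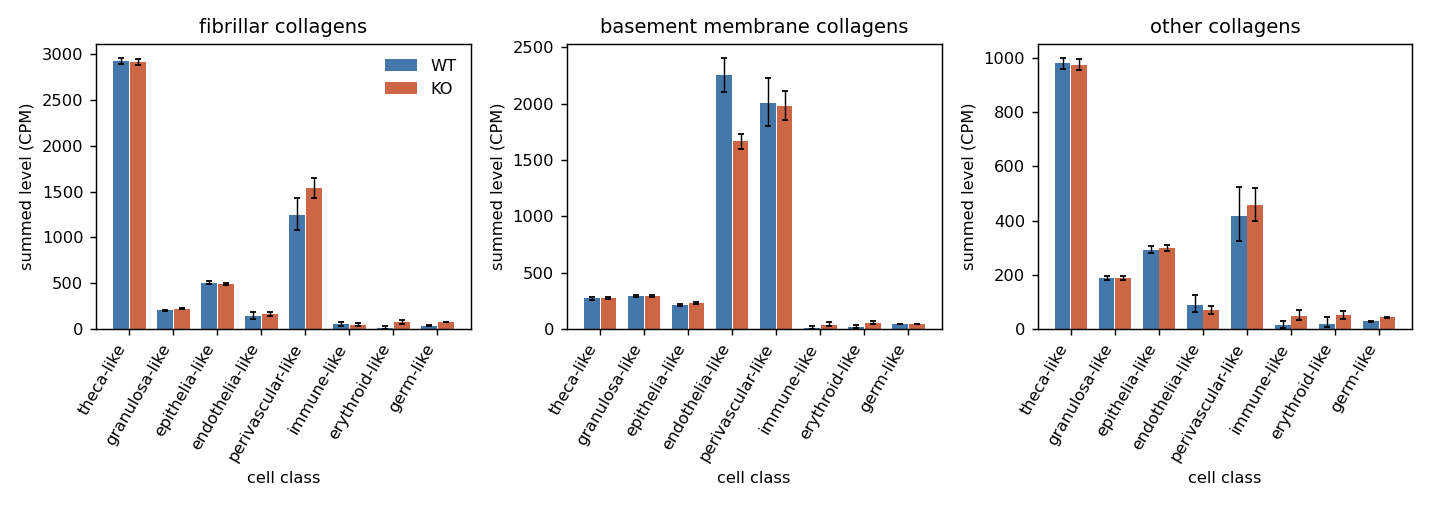
Summed CPM of fibrillar, basement membrane and other collagens in each cell class, WT in blue and KO in orange, with exact 95% counting intervals as bars. Fibrillar and other collagens peak in theca-like cells, and basement membrane collagens in endothelia-like (2252 and 1666 CPM) and perivascular-like cells (2005 and 1981 CPM).

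Vascular cells carried basement membrane collagens. In endothelia-like cells 4 of the 31 collagens were at least 2-fold higher than in the other somatic cells in both libraries (5.41% of all genes), and all 4 belong to basement membranes: Col4a1, Col4a2, Col15a1 and Col18a1. In perivascular-like cells there were also 4 (3.92% of all genes), namely Col4a1, Col4a2, Col6a3 and Col14a1. The Col14a1 level there, 35.2 and 37.5 CPM, rests on 6 UMIs in WT and 18 in KO. The theca marker sum of perivascular-like cells was 32.3% and 39.7% of the theca-like level, and its part in these 4 was not tested. Basement membrane chains made up 90.7% and 87.5% of the collagen UMIs of endothelia-like cells, against 6.51% and 6.62% in theca-like cells.

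Col4a1 and Col4a2 encode the most widespread type IV chains. In endothelia-like cells Col4a1 was at 1173 CPM (1065 to 1289) in WT and 863 CPM (815 to 913) in KO, and Col4a2 at 604 CPM (528 to 689) and 427 CPM (394 to 463). In perivascular-like cells Col4a1 was at 1196 CPM (1038 to 1372) and 1268 CPM (1170 to 1373), and Col4a2 at 715 CPM (594 to 854) and 602 CPM (534 to 675). Both classes stood well above granulosa-like cells (113 and 113 CPM of Col4a1), theca-like cells (110 and 112 CPM) and epithelia-like cells (86.7 and 97.54 CPM), and granulosa-like and theca-like levels differed by no more than counting error. The ratio of Col4a1 to Col4a2 UMIs was between 1.47 and 2.40 in these 5 somatic classes, but 0.704 (0.656 to 0.756) and 0.867 (0.811 to 0.926) in germ-like cells.

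The vascular proteoglycan collagens differed in how widely they occurred. Col15a1 was at 138 CPM (102 to 181) and 106 CPM (89.8 to 125) in endothelia-like cells and at 3.16 and 2.23 CPM in the other somatic cells, a 43.6-fold and a 47.6-fold difference. In perivascular-like cells it was at 5.86 and 6.25 CPM, at or under the 17.6 and 6.25 CPM that 3 UMIs give there. Col18a1, the precursor of endostatin, was at 329 CPM (273 to 393) and 264 CPM (238 to 293) in endothelia-like cells, yet reached 46.5 and 50.4 CPM in granulosa-like cells and 34.4 and 41.4 CPM in epithelia-like cells. Theca-like cells had 13.7 and 7.52 CPM of Col18a1, below each of these.

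The minor type IV chains had different orders. Col4a5 was highest in granulosa-like cells, at 52.5 and 51.1 CPM, with 40.1 and 36.8 CPM in theca-like and 41.4 and 39.9 CPM in epithelia-like cells. Its neighbour Col4a6 was highest in theca-like cells, at 10.4 and 11.4 CPM, with 5.13 and 6.04 CPM in granulosa-like cells. There were 10.3 and 8.45 Col4a5 UMIs for each Col4a6 UMI in granulosa-like cells and 3.87 and 3.23 in theca-like cells, and the intervals did not overlap. Col4a4 was at 17.7 and 19.1 CPM in theca-like cells and at 0.915 and 0.390 CPM in granulosa-like cells.

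Granulosa-like and epithelia-like cells had no collagen at 2-fold or more over the other somatic cells in both libraries, against 7.19% and 3.74% of all genes. The nearest were Col12a1 in epithelia-like cells and Col4a5 in granulosa-like cells. Col12a1, a fibril-associated chain, was at 81.6 CPM (74.5 to 89.1) and 93.5 CPM (87.9 to 99.4) in epithelia-like cells, 1.79-fold and 2.15-fold over the others. Col4a5 was 1.39-fold and 1.49-fold higher in granulosa-like cells. In turn, 20 of the 31 collagens were at least 2-fold lower in granulosa-like cells in both libraries (11.4% of all genes) and 15 in epithelia-like cells (10.1% of all genes). The other somatic cells include theca-like cells, where 22 of the 31 were higher. These lower counts, and those of the classes below, are therefore not separate from that result. Epithelia-like cells held 22.8% of the theca marker level in each library and 30.8% and 34.1% of the granulosa marker level, and the part of these in the collagen values was not tested.

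The remaining classes were low in nearly all collagens. In both libraries 27 collagens were at least 2-fold lower in immune-like cells (23.6% of all genes) and 28 in erythroid-like cells (41.3% of all genes), the latter with germ marker levels of 46.1% and 57.5% of those in germ-like cells. Endothelia-like cells were low in 22 collagens (18.4% of all genes), among them Col6a1, Col6a2 and Col1a2, and perivascular-like cells in 4 (16.1% of all genes).

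Collagen levels also varied between clusters of 1 class. Clusters are given by number and leading genes, which were ranked against clusters of other classes. In theca-like cells, cluster 10, led by Ptn, Mfap4, Dcn, Lum and Mgp (121 WT and 187 KO cells), had 4 of the 28 collagens tested in the class at 2-fold or more over the other theca-like clusters in both libraries (1.35% of all genes), namely Col1a1, Col8a2, Col14a1 and Col27a1. Col14a1, which coats fibrils, was at 119 and 102 CPM there against 11.9 and 13.3 CPM in the other theca-like clusters, a log2 ratio of 3.33 and 2.94. Col1a1 was at 1333 and 1239 CPM against 624 and 596 CPM. This cluster also had 2 collagens at least 2-fold lower (3.45% of all genes): Col4a4, at 1.64 and 1.81 CPM against 20.6 and 21.3 CPM, and Col6a5, at 4.91 and 4.52 CPM against 13.6 and 17.2 CPM. Decorin (Dcn) and lumican (Lum) are proteoglycans of collagen fibrils.

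Cycling theca-like cells were not collagen-free. Clusters 18 and 23 had 361 to 499.5 CPM of Mki67, a marker of cycling cells, where clusters 8, 9 and 10 had at most 28.0 CPM. Col1a1 was at 670.4 and 587 CPM in cluster 18 and at 471 and 493 CPM in cluster 23. In cluster 23, 4 of 28 collagens were at least 2-fold lower than in the other theca-like clusters (3.31% of all genes): Col6a5, Col6a6, Col9a2 and Col27a1.

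In granulosa-like cells, clusters 20 and 22, both with Gstm2 and Myl9 among their leading genes, held a set of collagens that the other granulosa-like cells had at low levels. These 2 genes do not set them apart, since cluster 14 also had both. It had 0 of 20 collagens at 2-fold or more in both libraries (0.303% of all genes). Cluster 22 (122 WT and 218 KO cells) had 6 of the 20 collagens tested in the class at 2-fold or more in both libraries (3.28% of all genes): Col3a1, Col5a2, Col6a1, Col6a2, Col9a2 and Col18a1. Col18a1 was at 291 and 298 CPM there against 18.8 and 27.0 CPM in the other granulosa-like clusters, and it was at 329 and 264 CPM in endothelia-like cells. Col3a1 was at 456 and 427 CPM against 65.7 and 76.0 CPM, and Col9a2, a type IX chain, at 96.1 and 106 CPM against 20.8 and 21.3 CPM. Col1a1, in contrast, was at 3.59 and 3.77 CPM. The theca marker sum of cluster 22 was 4.46% and 4.71% of that in theca-like cells, its endothelia marker sum 0.364% and 0.649% of that in endothelia-like cells, and no cell of the cluster was called a doublet.

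Cluster 20 (41 WT and 57 KO cells) had 5 of 20 collagens at 2-fold or more (2.11% of all genes): Col5a2, Col6a1, Col6a2, Col18a1 and Col26a1. It shared Col5a2, Col6a1, Col6a2 and Col18a1 with cluster 22, whereas Col9a2 was lower in cluster 20 (7.47 and 8.64 CPM) than in the other granulosa-like clusters (29.5 and 29.2 CPM). Its level of Col4a2 was also lower, 20.6 and 21.6 CPM against 74.8 and 70.9 CPM. Its theca marker sum was 6.82% and 8.77% and its endothelia marker sum 0.540% in each library, and again no cell was called a doublet. At the other end, cluster 12, led by Gng13 and Cst12 (133 WT and 657 KO cells), had 6 of 20 collagens at least 2-fold lower (1.96% of all genes), Col1a1, Col1a2, Col3a1, Col6a1, Col6a2 and Col18a1.

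In epithelia-like cells, cluster 21, led by Krt19, Upk3b, S100a6 and Tagln (74 WT and 139 KO cells), had 3 of 18 collagens at 2-fold or more in both libraries (1.14% of all genes): Col1a1, Col1a2 and Col18a1. Col1a1 was at 207 and 237 CPM there against 21.4 and 18.6 CPM in the other epithelia-like clusters, and Col18a1 at 81.8 and 105 CPM against 24.6 and 33.0 CPM. Col12a1 was lower, at 43.3 and 24.4 CPM against 89.5 and 103 CPM. The theca marker sum of cluster 21 was 55.4% and 63.7% of that in theca-like cells, no cell of it was called a doublet, and the part of theca-like RNA in these values was not tested.

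**Figure D3:**
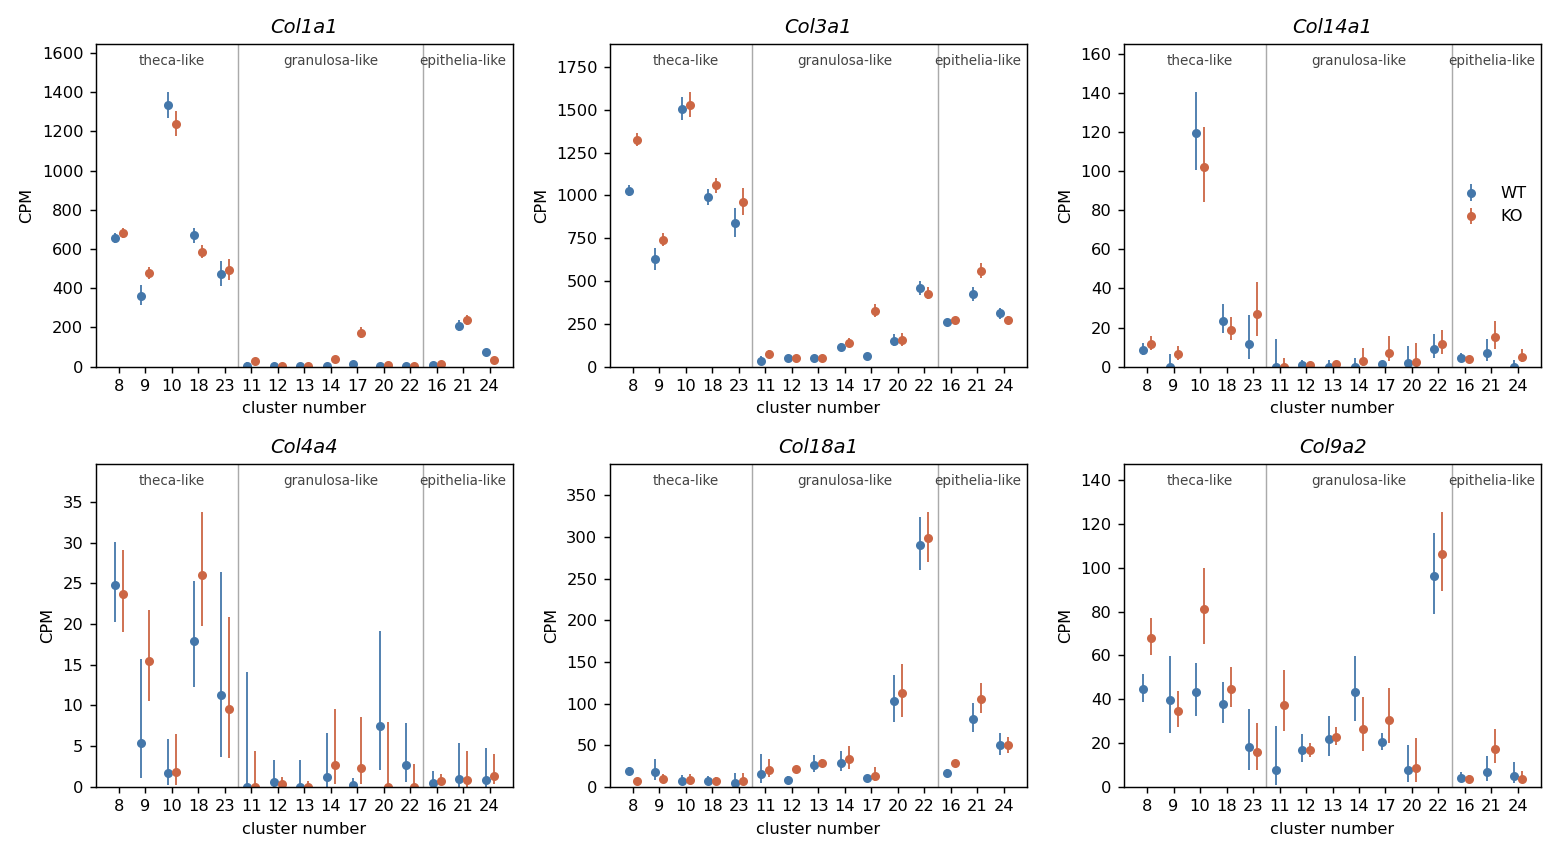
CPM of 6 collagens in each cluster of theca-like, granulosa-like and epithelia-like cells (x axis, cluster number), WT in blue and KO in orange, with exact 95% counting intervals. Col1a1 and Col14a1 are highest in theca-like cluster 10 where Col4a4 is at 1.64 and 1.81 CPM, Col18a1 and Col9a2 peak in granulosa-like cluster 22, and Col1a1 in granulosa-like cluster 17 is at 14.6 CPM in WT and 171 CPM in KO.

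The next comparison asked whether collagen levels differed between WT and KO cells of the same class. A gene counted as different when the KO and WT levels, as ln(CP10k + 1), where CP10k is counts per 10000 UMIs, differed by 0.25 or more. No collagen passed this limit in theca-like cells (0 of 28; 0.165% of all genes), granulosa-like cells (0 of 20; 0.189%), epithelia-like cells (0 of 18; 0.246%) or germ-like cells (0 of 35; 0.168%), nor did any differ 2-fold in CPM in the first 3 classes. Even its complete loss takes a gene past this limit only from a WT level of 28.4 CPM, which 18 of the 28 collagens had in theca-like, 9 of 20 in granulosa-like, 12 of 18 in epithelia-like and 0 of 35 in germ-like cells. For the others the limit says nothing of a fall, and in germ-like cells, where the highest WT level was the 14.97 CPM of Col4a2, it could not be passed downwards. Collagens with a counting interval of the log2 ratio above or below 0 numbered 4 and 5 in theca-like cells (6.38% and 8.29% of all genes), 2 and 0 in granulosa-like cells (8.14% and 11.8%) and 3 and 2 in epithelia-like cells (7.95% and 6.41%).

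In theca-like cells the sums of fibrillar, basement membrane and other collagens in KO and WT differed by no more than counting error, with log2 ratios of -0.00 (-0.03 to 0.02), 0.02 (-0.06 to 0.10) and -0.01 (-0.05 to 0.04). Within the fibrillar group, the type I chains were slightly lower in KO, with log2 ratios of -0.13 (-0.18 to -0.08) for Col1a1 and -0.10 (-0.14 to -0.05) for Col1a2, and Col3a1 was slightly higher, at 0.12 (0.08 to 0.16). With the same limits on cells in both libraries Col3a1 came to -0.06. The largest ratios above 0 were those of Col11a1 (0.44, 0.22 to 0.66) and Col9a2 (0.39, 0.19 to 0.59), both named here because of these values. Col18a1 had the largest ratio below 0, -0.86 (-1.31 to -0.43), and it came to -0.13 with the same limits on cells, to 0.00 with all deposited barcodes and to -0.01 without cells that held markers of another class. Its theca-like levels, 13.7 CPM in WT and 7.52 CPM in KO, were near the germ-like 10.4 and 11.3 CPM.

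Theca-like cluster 9 had 61 WT and 328 KO cells, so the clusters entered the class in different shares. Within cluster 8, the largest one (411 WT and 668 KO cells), Col1a1 was at 655 and 682 CPM, whereas within cluster 10 it was at 1333 and 1239 CPM and within cluster 9 at 360.3 and 477 CPM. The sign of the Col1a1 difference was therefore not the same in every cluster.

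In granulosa-like cells, Col1a1 and Col1a2 were the collagens with intervals above 0: 8.88 CPM in WT and 15.46 CPM in KO, a log2 ratio of 0.80 (0.45 to 1.16), and 20.5 and 33.7 CPM, 0.72 (0.49 to 0.95). The KO cells of cluster 17, led by Gng13 and Fst (384 WT and 70 KO cells), had the highest levels, with Col1a1 at 171 CPM against 14.6 CPM in WT and Col1a2 at 195 CPM against 29.4 CPM. This cluster also had both chains at 2-fold or more over the other granulosa-like clusters in both libraries (2 of 20; 0.151% of all genes). Its theca marker sum was 27.4% of the theca-like level in KO and 6.51% in WT, and 24 of its 70 KO cells (34.3%) were called doublets, compared with 7 of 384 WT cells (1.82%). Without cluster 17 the class ratio of Col1a1 was 0.97, without called doublets 0.92, with the same limits on cells in both libraries 0.24 and with all deposited barcodes -0.30. Clusters 12 and 13 held 657 and 628 of the KO cells and 133 and 89 of the WT cells, whereas cluster 17 held 384 of the WT cells, so different clusters made up most of the class in the libraries. Without cluster 17, Col3a1 passed the limit of 0.25, with a log2 ratio of -0.69. All other of the 20 collagens tested in the class had intervals that held 0, among them Col4a1 (0.01, -0.10 to 0.11).

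**Figure D4:**
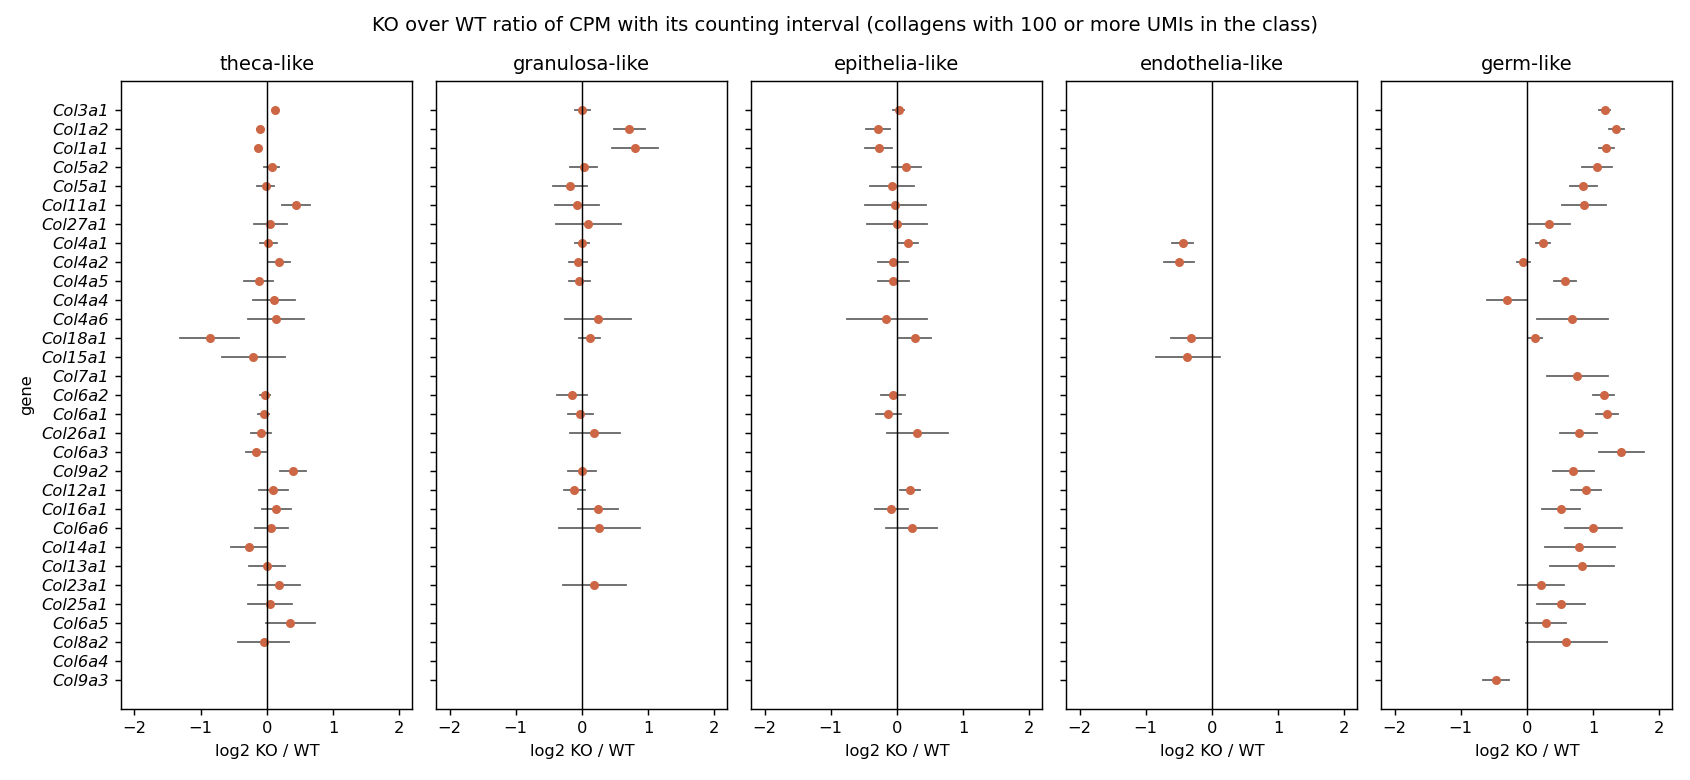
Log2 ratio of KO over WT CPM for those of the 31 collagens with at least 100 UMIs in the class over both libraries, by class, with the exact 95% counting interval as a line. In theca-like, granulosa-like and epithelia-like cells, the ratios furthest from 0 are theca-like Col18a1 (-0.86) and granulosa-like Col1a1 (0.80) and Col1a2 (0.72). Theca-like Col11a1 (0.44) and Col9a2 (0.39) come next. Ratios of endothelia-like cells lie below 0, and most of those of germ-like cells lie above 0.

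In epithelia-like cells, Col1a1 and Col1a2 were lower in KO, with log2 ratios of -0.28 (-0.48 to -0.07) and -0.29 (-0.47 to -0.11). Col12a1 (0.20, 0.04 to 0.35), Col4a1 (0.17, 0.02 to 0.32) and Col18a1 (0.27, 0.03 to 0.51) were higher. With all deposited barcodes the ratios of Col1a1 and Col1a2 came to 1.09 and 0.17, and that of Col18a1 came to -0.16 after thinning and to -1.33 without cells that held markers of another class. Cluster 21, the one with type I chains, held 74 of 351 WT cells and 139 of 954 KO cells, so its share of the class was larger in WT, while the level of Col1a1 within it was higher in KO.

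Endothelia-like cells were outside these main comparisons because they were few. Of the 4 collagens with enough UMIs, 2 passed the limit of 0.25, both lower in KO, where 16.1% of all genes of this class passed it in either direction and 4.6% were lower. Col4a1 had a log2 ratio of -0.44 (-0.60 to -0.28) and Col4a2 of -0.50 (-0.72 to -0.27), and Col18a1 (-0.32, -0.62 to -0.01) and Col15a1 (-0.37, -0.84 to 0.12) lay on the same side. The endothelia marker sum was itself lower in KO, 3603 CPM against 5186 CPM in WT, and erythroid markers summed to 1582 CPM in KO and 30364 CPM in WT. Of the KO cells in this class, 28 of 136 (20.6%) were called doublets and 0 of 30 WT cells were, and germ markers were at 24.7% of the germ-like level in KO and 1.87% in WT. After called doublets were left out, Col4a1 had a ratio of -0.14 and Col4a2 of -0.14, and neither passed the limit, while Col18a1 came to 0.02. The part of these in the ratios of the class was not tested. With 14 WT cells, perivascular-like levels are given above without a comparison.

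Germ-like cells, the reference for collagen UMIs outside somatic cells, had 108 CPM of collagens in WT and 170 CPM in KO. Relative to all somatic cells, 30 of 38 collagens were at least 2-fold lower in germ-like cells in both libraries (32.6% of all genes) and 4 were at least 2-fold higher (25.9% of all genes): Col2a1, Col11a2, Col19a1 and Col20a1. In WT and KO germ-like cells Col2a1 had 207 and 187 UMIs, Col11a2 166 and 155, Col19a1 131 and 143, and Col20a1 273 and 219, whereas somatic cells of both libraries together had 24, 25, 8 and 39. Col9a3 was at 4.00 and 2.90 CPM in germ-like cells, 188% and 140% of the somatic level. For these 5 genes a low somatic level is at or under the germ-like one and is not read as expression. Levels of a single class can also be near the germ-like one. Theca-like Col18a1 had 13.7 and 7.52 CPM against 10.4 and 11.3 CPM in germ-like cells. Granulosa-like Col1a1 had 8.88 and 15.46 CPM against 7.02 and 16.2 CPM.

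**Figure D5:**
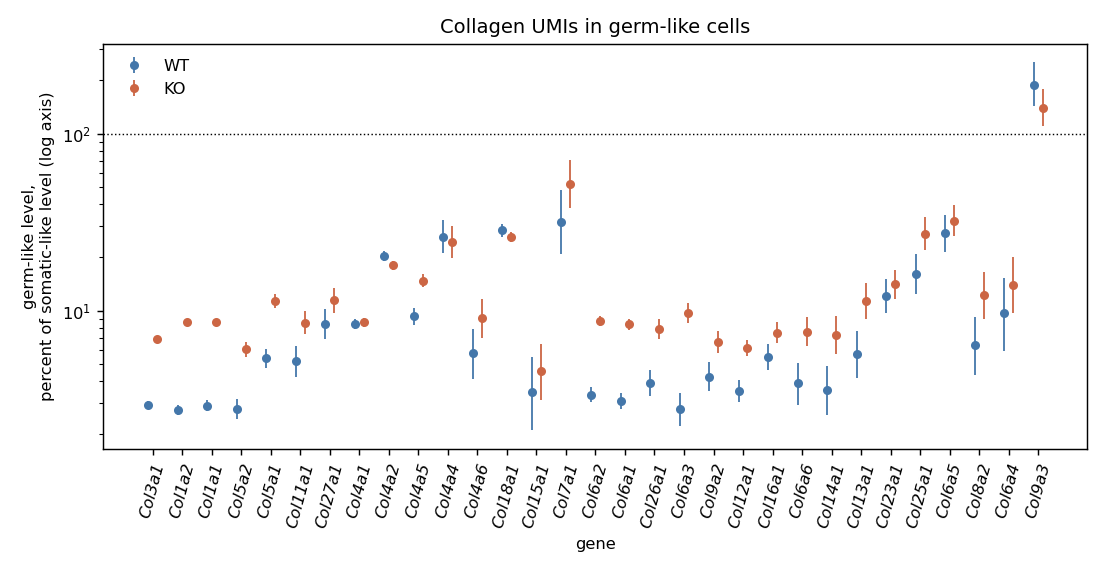
Collagen level in germ-like cells as a percent of the level in all somatic-like cells (log axis), by gene, WT in blue and KO in orange, with exact 95% intervals; the dotted line marks 100%. Col1a1, Col1a2 and Col3a1 lie between 2.75% and 2.94% in WT and between 6.96% and 8.62% in KO. Col4a1 (8.45% and 8.60%), Col4a2, Col4a4 and Col18a1 lie close together in both, whereas Col4a5 (9.28% and 14.8%) does not. Col9a3 lies above 100%.

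The fibrillar chains that mark theca-like cells were higher in KO than in WT germ-like cells. Col1a1 was at 7.02 and 16.2 CPM, or 2.90% and 8.58% of the somatic level, and Col3a1 at 12.96 and 29.3 CPM, or 2.94% and 6.96%. Of 35 collagens tested, 7 were at least 2-fold higher in KO (1.5% of all genes): Col1a1, Col1a2, Col3a1, Col5a2, Col6a1, Col6a2 and Col6a3. Intervals lay above 0 for 23 and below 0 for 3 (27.1% and 32.9% of all genes). Among basement membrane chains, Col4a2, with 20.4% and 18.0% of the somatic level, had a log2 ratio of -0.05 (-0.14 to 0.04). Col18a1, with 28.4% and 26.1%, had 0.12 (0.02 to 0.23). Col4a1 (0.25), Col4a5 (0.57), Col4a6 (0.68) and Col7a1 (0.76) also had intervals above 0, and Col4a4 (-0.30) had one below 0. The sum of this group had a ratio of 0.15 (0.10 to 0.20), and that of fibrillar collagens 1.09 (1.04 to 1.14).

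All 7 were among the 22 of 31 collagens (71.0%) at 2-fold or more in theca-like cells over all other somatic cells. The theca marker sum was 66.2 CPM in WT and 74.9 CPM in KO germ-like cells, or 3.96% and 4.83% of the theca-like level. The granulosa marker sum was 2.23% and 3.60% of the granulosa-like level, and 3.07% and 8.41% of germ-like cells were called doublets. Without cells that held markers of another class, the log2 ratio was 0.43 for Col1a1 (1.20 with them), 0.96 for Col1a2 (1.35) and 0.63 for Col3a1 (1.18). Without called doublets it was 0.86 for Col1a1, 1.04 for Col1a2 and 0.72 for Col3a1. The part of doublets and of RNA from other cells in the remaining ratios was not tested.

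The genes that act on collagen were followed through 6 lists, and none of their members passed the limit of 0.25 between KO and WT in theca-like, granulosa-like, epithelia-like or germ-like cells. Smaller differences were found in germ-like cells, where 27.1% of all genes had an interval above 0 and 32.9% below. Above 0 were 10 of 10 fibril partners and 6 of 6 breakdown genes, with median log2 ratios of 0.85 and 0.89. So were 6 of 9 propeptide-cleaving and crosslinking enzymes (median 0.43) and 9 of 18 hydroxylases and folding factors (0.08), with 0 and 2 below. Of 5 collagen receptors 1 was above and 3 were below (-0.50), and of 12 basement membrane partners 3 and 3 (0.01). In granulosa-like cells the intervals of 4 of 6 propeptide-cleaving and crosslinking enzymes lay above 0 (8.14% of all genes), with a median of 0.30. Between classes, the lists are read against the same shares of all genes as the collagens, 7.26% for theca-like, 5.41% for endothelia-like, 3.92% for perivascular-like, 7.19% for granulosa-like and 3.74% for epithelia-like cells. Of 19 hydroxylases and folding factors, 5 were at least 2-fold higher in theca-like cells in both libraries, led by P3h2, a prolyl 3-hydroxylase (11.6 and 14.5 CPM, log2 ratio 3.72 and 4.66), and Plod2, a lysyl hydroxylase (59.0 and 63.0 CPM, 2.55 and 2.23). Of 9 propeptide-cleaving and crosslinking enzymes with enough UMIs, 6 were, led by Loxl1 (115 and 126 CPM, 3.74 and 3.91) and the procollagen N-propeptidase Adamts2 (75.3 and 81.9 CPM, 3.36 and 3.10). In epithelia-like cells the crosslinking enzyme Loxl2 was the only one of these 9 at 2-fold or more (75.3 and 81.4 CPM, 1.65 and 1.79).

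Of 11 fibril partners, 8 were at least 2-fold higher in theca-like cells, among them Lum (138 and 114 CPM, 6.39 and 5.28) and Bgn, biglycan (308 and 324 CPM, 3.73 and 3.65). Fmod, fibromodulin, was instead higher in epithelia-like cells (10.1 and 10.9 CPM, 2.29 and 3.15) and Sparc, a collagen-binding glycoprotein, in endothelia-like cells (2157 and 2057 CPM, 1.34 and 1.22). Of 12 basement membrane partners, 4 were at least 2-fold higher in endothelia-like cells, led by the laminin chain Lama4 (148 and 89.7 CPM, 4.32 and 3.60) and Hspg2, perlecan (213 and 167 CPM, 3.05 and 2.67). Perivascular-like cells had 3 of the 12, among them Lama4 (46.9 and 43.7 CPM, 2.36 and 2.14). Theca-like cells had 5 of the 12, with Lama2 first (20.7 and 22.9 CPM, 3.75 and 3.57), granulosa-like cells only Lama3 (4.58 and 5.003 CPM, 2.05 and 1.55) and epithelia-like cells only Lama5 (12.9 and 8.98 CPM, 2.42 and 2.72).

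Among 5 collagen receptors with enough UMIs, Itga1, the α1 integrin chain that binds type IV collagen, was higher in perivascular-like cells (129 and 119 CPM, 5.77 and 5.87) and Itga11, an integrin chain for fibrillar collagen, in theca-like cells (10.7 and 12.1 CPM, 2.52 and 2.63). Ddr2, a receptor kinase for fibrillar collagen, was higher in both. Among 6 genes of collagen breakdown, Mmp2 (181 and 200 CPM, 3.79 and 3.56), Mrc2 (20.1 and 22.2 CPM, 2.06 and 2.33) and Mmp14 (188 and 203 CPM, 1.94 and 1.99) were higher in theca-like cells. Timp1, a metalloproteinase inhibitor, was 2-fold or more higher in granulosa-like cells (93.2 and 87.7 CPM, 1.13 and 1.00).

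At the low end, 13 of the 44 collagens had fewer than 100 somatic UMIs and no ratio was read from them. Col9a1 and Col10a1 had 0 UMIs in somatic cells, a count that allows up to 3. Between 8 and 39 UMIs were found for Col2a1, Col4a3, Col5a3, Col8a1, Col11a2, Col17a1, Col19a1, Col20a1, Col24a1 and Col28a1. Col22a1 fell just below the limit with 90 UMIs, and Col7a1 (107) and Col9a3 (138) were just above it.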

How the data were processed

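Fetal ovaries were profiled with the 10X 3′ kit in 1 WT and 1 KO library. The authors deposited counts: whole UMIs per gene and barcode, made with Cell Ranger (matrix header version 3.0.2) against mm10, as the submitters' notes give it. The strand setting was not given in the sources used here, and reads where genes overlap may be split. Col4a1 and Col4a2 overlap at their starts only, away from the 3′ ends that the counts follow. The authors analysed cells with Seurat 3.2.3. Counts follow 3′ ends, so levels are compared between classes and libraries, not between genes.

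Cells were kept with the study's limits: 5500 to 40000 UMIs from 1500 to 6500 genes in WT, 3000 to 30000 UMIs from 1200 to 5500 genes in KO, and a mitochondrial share below 10% in both. Totals over all barcodes were 168483330 UMIs in WT and 186117981 in KO. Doublets were not removed from the main values; Scrublet, at an expected rate of 8%, called 2.60% of WT and 6.60% of KO cells. Cells were clustered in scanpy 1.11.5 (2000 variable genes without collagens, 30 components, 20 neighbours, Leiden resolution 0.5, then 1.0 for somatic cells) and named "-like" from at least 3 markers. These classes were rebuilt here and may differ from the study's.

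UMIs were summed per class and library. Intervals are exact Poisson for a level and exact conditional binomial for a ratio (95%, scipy 1.17.1), and cover counting error only. Calls needed 100 UMIs over both sides; class calls needed 2-fold in both libraries. There was no statistical test. Only the intervals of the log2 ratio were tested on simulated data. These were Poisson counts, the model the intervals assume, for granulosa-like, theca-like, epithelia-like and endothelia-like cells. Clustering, naming of classes and calls were not tested in this way. Named collagens were the chains of types I, III, IV (Col4a1 and Col4a2), V, VI (Col6a1 to Col6a3), XV and XVIII, every collagen called between KO and WT, and the 3 with the largest ratio in each class; others named were chosen after their values were seen. Partner genes were the 2 largest class ratios of a list or likewise chosen later. The members, lists and limits were chosen with earlier results of these data known. Alternatives changed the limits on cells, clustering, doublets, cells with mixed markers, depth, scaling, minimum UMIs and size limits.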

Additional observations from a re-analysis of the deposited data

How the results depend on the processing

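No paired analysis was possible because each genotype had 1 library. The number of collagens called higher in theca-like cells (22) ranged from 18 with a 4-fold limit to 25 with no minimum of UMIs, and the 4 in endothelia-like cells were 4 under every alternative that gave a value. In perivascular-like cells the number was 7 against the unweighted mean of the other classes, and with a resolution of 0.5 in both clusterings, added after seeing the data, no perivascular-like class was found. In granulosa-like cells (0) it was 1 with all deposited barcodes, 1 with a minimum of 30 UMIs, 2 with no minimum and 2 against the unweighted mean. In epithelia-like cells (0) it was 1 with all deposited barcodes, 1 without granulosa-like cluster 17 (also added after seeing the data), 1 with the germ-like level subtracted, 4 against the unweighted mean and 2 with a 1.5-fold limit. Between KO and WT, 1 collagen passed in granulosa-like cells without cluster 17 (Col3a1), 1 in epithelia-like cells without cells with markers of another class (Col3a1, from 9 WT and 73 KO cells), and 7 in germ-like cells with a 2-fold limit. In endothelia-like cells, the 2 called collagens became 0 without called doublets, without cells with markers of another class, as a mean over cells, and with limits of 0.5 or 2-fold, and 1 (Col18a1) after thinning. Of 163 recomputed counts, 144 stayed within 1.5 times the main count. Of 1372 recomputed ratios of single genes, 299 moved past the counting interval. Of 400 recomputed ratios of KO over WT whose interval lay off 0, 12 changed sign, among them granulosa-like Col1a1, from 0.80 to -0.30 with all deposited barcodes, and theca-like Col3a1, from 0.12 to -0.06 with the same limits on cells. The cause of these shifts was not tested.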
